A study of Mus musculus with 14 samples.

Results

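The response of the liver to a high-fat, high-sugar diet was measured in mice with 1 floxed copy of the lamin gene Lmna, in 6 of the 14 arrays of the study. The comparison set 3 livers labelled LMNA flx/+; Alb-cre+ on the high-fat diet (HFD) against 3 livers of the same genotype on normal chow, and these mice are called HET here. HFD stands for the Surwit diet given for 14 weeks with sugar in the drinking water (42 g/L, made up of 55% fructose and 45% sucrose). All mice were male, of the C57BL/6 strain and Alb-cre+, so that Cre recombinase was driven by the albumin promoter, which is active in hepatocytes. A floxed copy is therefore meant to be removed in hepatocytes, while the RNA came from whole liver. The labels do not give its state in the other cells of the liver. The HET mice on chow were 26.4, 26.4 and 24 weeks old (replicates 1, 2 and 3) and those on HFD 30.4, 30 and 30 weeks old, so age and diet cannot be told apart in this comparison. The other groups were LMNA +/+; Alb-cre+ on chow (WT, 2 livers, 27 and 24.6 weeks) and LMNA flx/flx; Alb-cre+ (KO) on chow (3 livers, 38.9 weeks) and on HFD (3 livers, 35.3 weeks).

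The liver clears drugs, steroids and bile acids through cytochrome P450 enzymes, enzymes that attach glutathione or glucuronic acid, and transporters. Many of these genes are known targets of the nuclear receptors CAR and PXR or of the oxidative stress factor NRF2. The liver is also the main site of fructose use: ketohexokinase phosphorylates fructose without feedback control, and the products feed glycolysis and fatty acid synthesis. The sugar-responsive factor ChREBP and the insulin-responsive factor SREBP-1c are known to raise the genes of that synthesis.

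Values are log2 intensities after robust multi-array averaging (RMA), so a difference of 1 is a doubling, and the level of 1 gene cannot be set against that of another. Each of 22180 genes was tested with limma. A gene is called where the p adjusted over all genes is under 0.05, and differences are given as HFD minus chow ± the standard error of the fit, with 3 livers in each group. An exact permutation test of 3 against 3 cannot give a two-sided p below 0.1, so the calls rest on the spread shared by all genes and arrays. Genes with means under 4 in both groups are called dim. Correlations over all genes were 0.989 to 0.994 among the chow arrays, 0.990 to 0.993 among the HFD arrays and 0.988 to 0.991 between them. Lmna was at 4.29, 4.40 and 4.25 on chow and at 4.07, 4.07 and 4.30 on HFD. These ranges overlapped, and the difference was -0.17 ± 0.12, adjusted p = 0.699. All 6 values lay below those of the WT livers (4.50 and 4.43), and the 6 KO livers lay between 3.67 and 4.09.

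The chow group was not uniform. Dbp, a clock output factor, was at 6.68, 5.70 and 9.56 in chow replicates 1, 2 and 3. The clock activator Arntl, which runs against it, was at 8.13, 8.34 and 4.22. In chow replicates 1 and 2 Dbp was lower and Arntl higher than in each of the other 12 livers. Their difference of Dbp minus Arntl, compared only between arrays, was -1.45 and -2.65, against 5.35 in chow replicate 3, 2.39 to 4.56 in the HFD livers, 2.66 and 5.07 in the WT livers and 1.39 to 3.24 in the KO livers. The part of this in the diet differences was not tested beyond 2 further fits, 1 without chow replicates 1 and 2 and 1 with Dbp minus Arntl as a term. The fit without chow replicates 1 and 2 has replicate 3 as its only HET chow liver, so only its differences are given below. Collection times are not given in the sources used here. HFD replicate 3 also stood apart from HFD replicates 1 and 2 in the mean level of some gene lists. It was at 8.73 against 9.54 and 9.58 for cholesterol synthesis and uptake, and at 6.76 against 7.62 and 7.64 for xenobiotic cytochromes and receptors. For endoplasmic reticulum and ATF4 stress it was at 7.78 against 7.08 and 7.10.

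**Figure D1:**
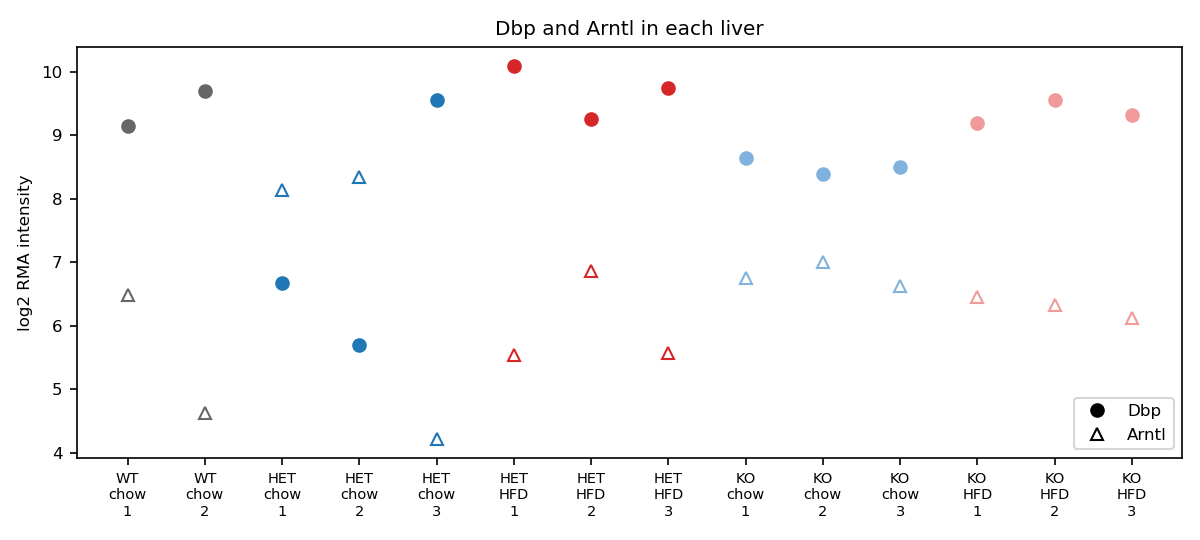
Log2 RMA intensity (vertical axis) of Dbp (filled circles) and Arntl (open triangles) in each of the 14 livers (horizontal axis, by group and replicate). In HET chow replicates 1 and 2 Dbp (6.68 and 5.70) is lower and Arntl (8.13 and 8.34) higher than in the other 12 livers, and heights are to be compared within a gene only.

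HFD called 44 of 22180 genes (0.198%), 11 of them higher (0.0496%) and 33 lower (0.149%). The larger and more numerous changes were falls, led by genes of drug metabolism, and the rises included the apolipoprotein gene Apoa4 and the hormone gene Fgf21. Each called gene is named below. The size reached 2-fold in 7 of the 11 rises and 23 of the 33 falls. In all 44 the 3 HFD livers lay outside the range of the 3 chow livers, as they did for 6.75% of all genes on the higher side and 6.83% on the lower side. The calls depended on single arrays: 12 of the 44 were kept in each of the 6 fits that left out 1 HET array. The number called ran from 13 without chow replicate 2 to 164 without chow replicate 3, and was 66 without HFD replicate 3. All 44 kept their direction in every fit tried that held them (39 of them where genes with a mean under 4 were left out). Leaving out HET arrays could not reverse a direction, because no HFD liver lay within the chow range in these genes. With Dbp minus Arntl as a term 39 genes were called and 17 of the 44 kept their calls. They were Cyp2b10, Cyp2c55, Gstm3, Ces2a, Snord15a, Apoa4, Tnfaip8l1, Tmie, Gm10639, Cyp3a11, 1810064F22Rik, Aqp4, Gm16845, Ugdh, Fam13a, Mir18 and Slc16a5. With age as a linear term 13 of the 44 kept their calls (Cyp2b10, Cyp2c55, Gm10639, Gstm3, Nqo1, Slc16a5, Etnppl, Lancl1, Kmt5a, 1810064F22Rik, Mir18, Khk and Tnfaip8l1). Within groups age varied mainly in HET chow and WT livers, and in HET chow it separated replicates 1 and 2 from replicate 3. The age slope came mostly from these livers and was extended to the older HFD mice. That fit is therefore not a diet effect corrected for age. With the 6 HET arrays alone 3 of the 44 kept their calls (Cyp2b10, Slco1a4 and Apoa4).

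Called falls of 2.22 or more on the log2 scale included 4 drug-metabolizing cytochromes of the CAR and PXR target families. Cyp2b10, the classical target of CAR, was at 7.06, 6.76 and 6.33 on chow and at 1.32, 1.45 and 1.73 on HFD. The groups were far apart, with a difference of -5.22 ± 0.37 and the smallest adjusted p of all genes (8.64e-05). The HFD values lay below the array medians of 2.21 to 2.30, so the true size of the fall is not measured. Cyp2c55, another gene known to respond to CAR and PXR activators, was at 8.79, 8.02 and 8.01 on chow and at 3.88, 5.41 and 4.46 on HFD. It fell by 3.69 ± 0.36 (12.9-fold, adjusted p = 9.48e-04). A second and dimmer probe set named for Cyp2c55 did not move with it (difference 0.24, adjusted p = 0.796). Cyp3a11, the main PXR target and counterpart of human CYP3A4, was at 10.57, 10.54 and 10.40 on chow and at 8.36, 8.79 and 7.70 on HFD. Each HFD value was lower than each chow value, by -2.22 ± 0.23 on average (adjusted p = 0.00128). Its relative Cyp3a59 was at 8.07, 7.89 and 7.94 on chow and 4.52, 6.32 and 6.09 on HFD, with HFD replicate 1 the lowest, and fell by 2.32 ± 0.38 (adjusted p = 0.0328). Arrays can carry signal between Cyp3a11 and Cyp3a59, so they are not independent. Without chow replicates 1 and 2 the differences were -4.83 for Cyp2b10, -3.43 for Cyp2c55, -2.12 for Cyp3a11 and -2.29 for Cyp3a59. Cyp3a59 lost its call without chow replicate 1 or 2 alone, at adjusted p = 0.130 in each case.

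Most members of these families were not called, and over all genes 0.149% were called lower and 0.0496% higher. In the list of 27 measured xenobiotic cytochromes and receptors, 3 were called lower and 0 higher, 7 were lower and 1 higher at an unadjusted p under 0.05 (5.46% and 4.78% of all genes, and 8.98% and 5.57% of the 9857 genes with a mean of at least 4), and the median difference was -0.13 against 0.002 for all genes. Without chow replicates 1 and 2 that median was -0.61. Over whole families, grouped by symbol after values were seen, 1 of 5 Cyp2b genes, 1 of 14 Cyp2c genes, 2 of 7 Cyp3a genes and 0 of 3 Cyp1 genes were called. Of 25 measured female-biased liver genes 2 were called lower (Cyp2b10 and Abcc4), with a median of -0.28, and of 23 male-biased genes 0 were called, with a median of 0.06. Cyp2b9, known as a female-biased cytochrome in mice, was at 3.43, 4.42 and 8.51 on chow and at 6.08, 5.89 and 1.79 on HFD, and its spread within each group exceeded the difference of -0.86 ± 1.23 (adjusted p = 0.875). Cyp2c29 was at 12.31, 12.31 and 12.32 on chow and at 11.91, 11.90 and 11.32 on HFD, a difference of -0.61 ± 0.18 that did not pass (adjusted p = 0.244). Cyp1a2, a target of the AH receptor named after its values were seen, was at 11.28, 10.97 and 11.48 on chow and at 11.74, 11.45 and 11.14 on HFD, with overlapping groups. The receptors themselves, named after their values were seen, did not pass. Nr1i3, which encodes CAR, was at 7.72, 7.46 and 9.97 on chow and at 9.67, 9.04 and 8.03 on HFD. Its low values were those of chow replicates 1 and 2. Nr1i2, which encodes PXR, was at 8.63, 8.79 and 9.07 on chow and at 8.82, 8.90 and 8.73 on HFD, with a difference of -0.01 ± 0.13.

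**Figure D2:**
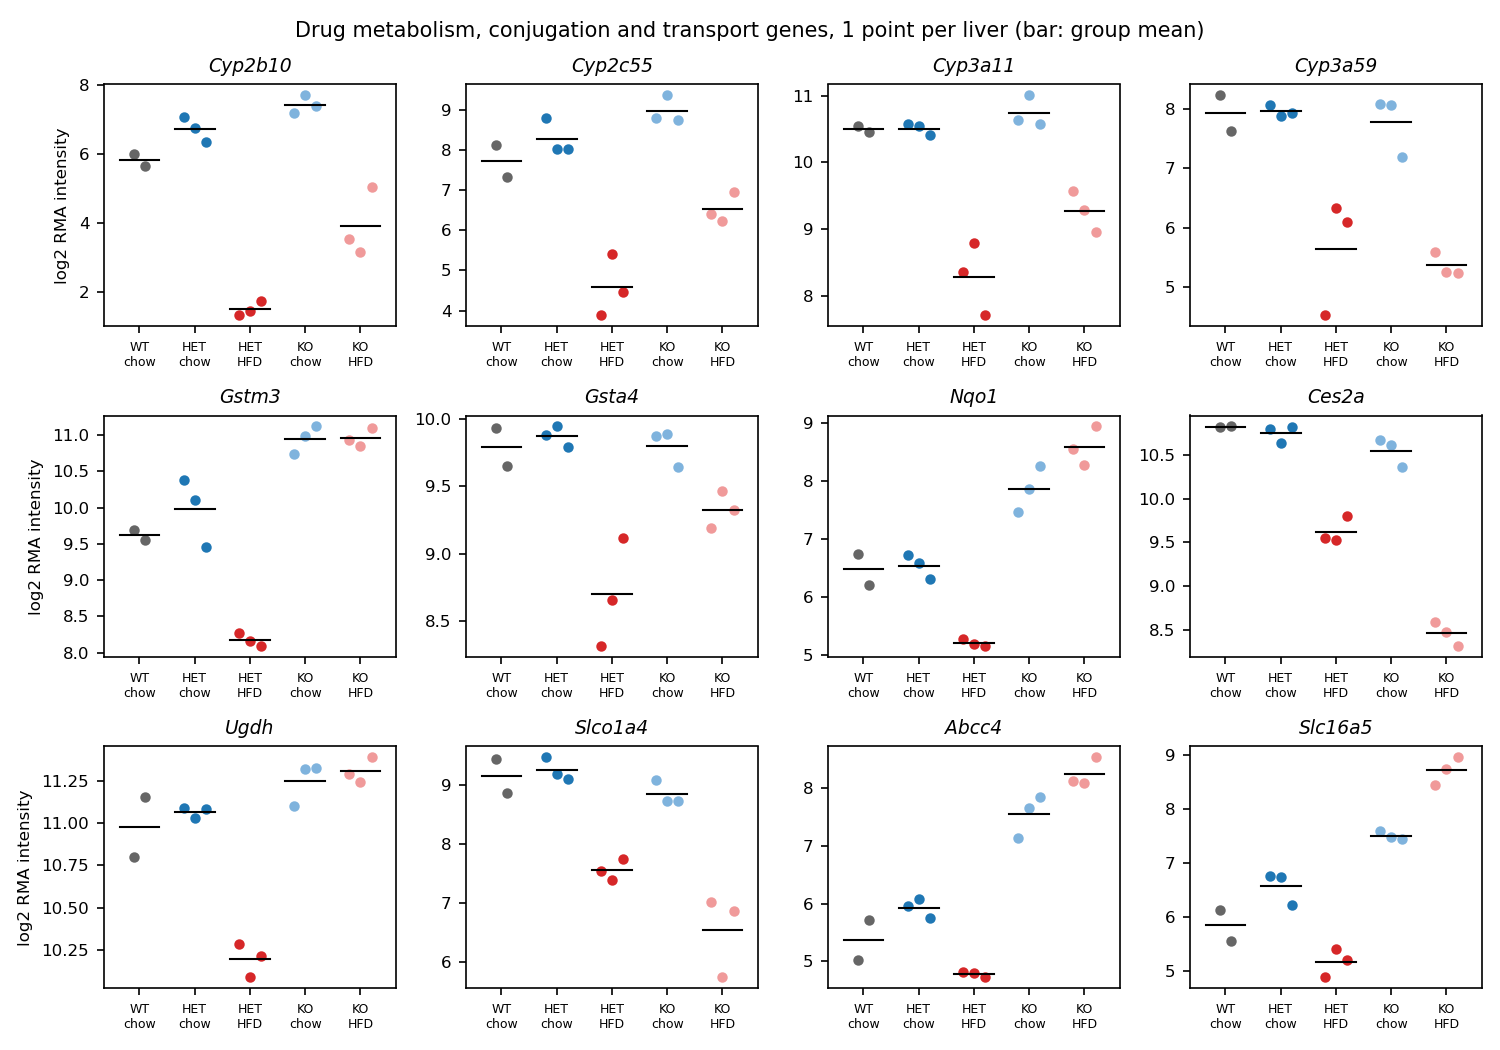
Log2 RMA intensity (vertical axes, scaled per panel and not starting at 0) of 12 genes of drug metabolism, conjugation and transport in the 5 groups (horizontal axes), with 1 point per liver and a bar at the group mean. The HET HFD livers lie below the HET chow livers in all 12 panels, from 6.33 to 7.06 on chow down to 1.32 to 1.73 on HFD for Cyp2b10, while the KO means of Gstm3, Nqo1, Ugdh, Abcc4 and Slc16a5 are not lower on HFD.

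Single conjugating and antioxidant enzymes also fell. By family, 1 of 2 Gsta, 1 of 6 Gstm, 1 of 6 Gstt and Gsto, 0 of 8 Ugt and 0 of 21 Sult genes were called. Over all genes 0.149% were called lower and 0.0496% higher, so 0 is the usual count for families of this size. Of the 21 Sult genes 15 were dim. Gstm3, a glutathione transferase of the mu class, was at 10.38, 10.11 and 9.46 on chow and at 8.27, 8.15 and 8.09 on HFD. Its HFD values were tight and below all others, and it fell by 1.81 ± 0.19 (3.51-fold, adjusted p = 0.00128). Gsta4, the alpha-class transferase that acts on lipid peroxidation products, was at 9.88, 9.94 and 9.79 on chow and at 8.31, 8.66 and 9.12 on HFD, a fall of 1.17 ± 0.17 (adjusted p = 0.0173). Nqo1, a quinone reductase and a standard readout of NRF2, was at 6.72, 6.59 and 6.31 on chow and at 5.27, 5.20 and 5.15 on HFD, and fell by 1.33 ± 0.22 (adjusted p = 0.0326). Gsto1, an omega-class transferase, was at 9.07, 9.19 and 9.10 against 8.49, 8.50 and 8.48 and fell by 0.63 ± 0.11 (adjusted p = 0.0361). The predicted gene Gm10639 was at 6.24, 6.13 and 5.84 against 2.92, 3.61 and 3.90 and fell by 2.59 ± 0.26 (adjusted p = 9.48e-04). Ces2a, a carboxylesterase that opens ester drugs, was at 10.80, 10.63 and 10.82 on chow and at 9.54, 9.52 and 9.80 on HFD, a fall of 1.13 ± 0.12 (adjusted p = 0.00142). It was the only called member of the 6 measured Ces2 genes, and 0 of 8 Ces1 genes were called. Without chow replicates 1 and 2 the differences were -1.28 for Gstm3, -1.20 for Ces2a and -2.36 for Gm10639. They were -1.09 for Gsta4, -1.10 for Nqo1 and -0.61 for Gsto1. With age as a term Ces2a differed by -0.99 (adjusted p = 0.155). The call of Gsta4 was lost without chow replicate 1, chow replicate 2 or HFD replicate 2 (adjusted p up to 0.0953). Those of Nqo1 and Gsto1 were lost in each fit without 1 HET array except the fit without chow replicate 3 (adjusted p up to 0.134 and 0.152).

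In the list of NRF2 targets and glutathione transferases, 3 of 24 measured genes were called lower (Gstm3, Gsta4 and Nqo1) and 0 higher. Over all genes these shares were 0.149% and 0.0496%. At an unadjusted p under 0.05, 11 were lower and 0 higher, against 5.46% and 4.78% of all genes, 21 of 24 differences were negative, and the median was -0.28 (-0.40 without chow replicates 1 and 2). The mean level of the list was 8.20 to 8.35 in the chow livers and 7.82 to 7.88 in the HFD livers, so these ranges did not overlap. Ephx1, microsomal epoxide hydrolase, missed the threshold narrowly: it was at 10.48, 10.36 and 10.57 on chow and at 9.67, 9.93 and 9.61 on HFD, a difference of -0.73 ± 0.13 (adjusted p = 0.0506). Gstm1 was at 8.99, 8.97 and 8.66 against 7.98, 8.26 and 8.41, a difference of -0.66 ± 0.14 (adjusted p = 0.0944). The glutathione synthesis genes Gclc and Gclm, also known NRF2 targets and named after their values were seen, differed by -0.10 ± 0.13 and -0.01 ± 0.13, within the spread of their groups. Nfe2l2, which encodes NRF2, differed by 0.15 ± 0.13.

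Ugdh makes UDP-glucuronic acid, the sugar donor of glucuronidation. It was at 11.09, 11.03 and 11.08 on chow and at 10.29, 10.09 and 10.22 on HFD, a small spread around a fall of 0.87 ± 0.12 (1.83-fold, adjusted p = 0.00837). Its call was kept without any single HET array, and its difference without chow replicates 1 and 2 together was -0.88. Its promoter is printed because Ugdh is the conjugation gene among the calls whose promoter held 2 matches to the antioxidant response element, the sequence that NRF2 binds, searched as TGACNNNGC on both strands. The 250 bases before the RefSeq start site (GRCm38.p6, chr5:65435843-65436092, minus strand) are given 5′ to 3′ on the gene's strand with the matches in capitals, at positions -132 and -94 from the start, the second on the opposite strand.
Ugdh: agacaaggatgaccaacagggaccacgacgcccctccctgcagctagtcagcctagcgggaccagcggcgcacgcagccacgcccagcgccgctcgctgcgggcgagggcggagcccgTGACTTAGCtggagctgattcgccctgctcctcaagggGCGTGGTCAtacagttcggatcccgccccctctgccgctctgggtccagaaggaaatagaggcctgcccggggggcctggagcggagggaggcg
Over windows that run 50 bases further, past the start site, 7 of 30 promoters of the called falls held such a match (23.3%), against 12.4% of all 32851 promoters and 5 of 29 (17.2%) in the NRF2 list. RefSeq promoters were matched for 25 of the 33 falls, and some genes have several. The matches in falls lay in Ugdh, Ect2, Clic5, Abcc4 and 1810064F22Rik, with Ect2 and Abcc4 each counted more than once. No match was found in these windows for the called genes of the NRF2 list, Gstm3, Gsta4 and Nqo1. Bases further upstream were not searched, and it is not given here whether each of these genes had a matched promoter. The matches in that list lay in Nfe2l2, Gclm, Srxn1, Txnrd1 and Gsta3, which were not called. A match is a description of the letters and no evidence of binding.

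A few transporters of bile acids and conjugates fell, while others of the same list lay higher. Slco1a4, an uptake carrier for bile acids and drugs, was at 9.46, 9.18 and 9.10 on chow and at 7.54, 7.38 and 7.74 on HFD, and fell by 1.69 ± 0.28 (3.23-fold, adjusted p = 0.0326). Abcc4, an export pump for bile acids and conjugates, was at 5.96, 6.08 and 5.76 on chow and at 4.82, 4.79 and 4.72 on HFD, a fall of 1.15 ± 0.21 at the edge of the threshold (adjusted p = 0.0496). Slc16a5, a monocarboxylate transporter of drugs, was at 6.75, 6.73 and 6.23 against 4.89, 5.41 and 5.21 and fell by 1.40 ± 0.20 (adjusted p = 0.0106), and its second probe set fell by 1.28. Slco1a4 and Abcc4 were the 2 called members of the list of bile acid synthesis and transport, against 0.149% of all genes called lower. The list held 22 measured genes and had a median of 0.13, with 13 positive and 9 negative differences. Among the uptake carriers Slco1a1 differed by 1.44 ± 0.52 (adjusted p = 0.348), and of 15 measured Slco genes 10 were positive. Without chow replicates 1 and 2 the differences were -1.55 for Slco1a4, -0.98 for Abcc4 and -1.06 for Slc16a5. Cyp7a1, the rate-limiting enzyme of bile acid synthesis, was at 10.44, 10.72 and 11.08 on chow and at 10.27, 9.28 and 7.82 on HFD. All HFD values were lower, but they ranged widely and the difference of -1.62 ± 0.47 did not pass (adjusted p = 0.230). Cyp8b1 (0.11 ± 0.49) and the bile acid sensor target Nr0b2 (-0.16 ± 0.26) overlapped between the diets. The calls of Slco1a4 (chow replicates 1 and 2 and HFD replicates 1 and 2, adjusted p up to 0.132), Slc16a5 (chow replicates 1 and 2 and HFD replicate 1, up to 0.0789) and Abcc4 (every HET array but chow replicate 3, up to 0.201) were lost when 1 of the arrays named was left out.

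Other falls belonged to no single list. Ect2, a guanine nucleotide exchange factor of cell division, was at 5.38, 5.81 and 5.74 on chow and at 3.45, 4.22 and 3.13 on HFD, and fell by 2.04 ± 0.29 (4.12-fold, adjusted p = 0.0106). Ect2 was not in the list of cell cycle genes, where 0 of 28 measured genes were called (0.198% of all genes) and the median was -0.16. Etnppl, which breaks down phosphoethanolamine, was at 11.21, 11.53 and 10.74 against 9.19, 9.37 and 9.95 and fell by 1.65 ± 0.27 (adjusted p = 0.0326). Fgfr1, a receptor for fibroblast growth factors, was at 5.87, 5.78 and 6.17 against 4.78, 4.57 and 4.62 and fell by 1.28 ± 0.21 (adjusted p = 0.0326). Orm2, an acute phase protein, was at 7.69, 7.57 and 7.09 against 6.58, 6.04 and 5.92 and fell by 1.27 ± 0.23 (adjusted p = 0.0455). It was the only call among 24 measured acute phase genes. Acsl4, which activates long-chain polyunsaturated fatty acids, fell by 0.55 ± 0.10 (adjusted p = 0.0476). The remaining falls were those of Gpat4, an enzyme of glycerolipid synthesis, Il17rb, Pop1, Clic5, Lancl1, Gtpbp4, Kmt5a, 1810064F22Rik and the small nucleolar RNAs Snora61 and Snord15a, of 0.61 to 3.06 on the log2 scale, and of 4 dim genes (Olfr622, Pqlc3, Mir18 and 9430083A17Rik). Without 1 HET array the calls of these genes were lost in 2 to 5 of the 6 fits, except 1810064F22Rik, which kept its call. Ect2 lost it without chow replicate 2 or HFD replicate 1 (adjusted p up to 0.0789), Etnppl without chow replicate 1 or 2 or HFD replicate 1 or 2 (0.139), and Orm2 without chow replicate 1 or 2 or HFD replicate 2 or 3 (0.192). Fgfr1 and Acsl4 lost it without any 1 of the HET arrays other than chow replicate 3 (0.123 and 0.193).

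Among the rises, Apoa4 was the largest. It encodes an apolipoprotein of triglyceride-rich particles that rises in fatty liver. It was at 8.77, 8.35 and 8.76 on chow and at 11.81, 11.42 and 12.06 on HFD, so that the lowest HFD liver exceeded the highest chow liver by a wide margin, and the difference was 3.14 ± 0.31 (8.79-fold, adjusted p = 9.48e-04). It kept its call without any single HET array, and without chow replicates 1 and 2 it differed by 3.00. With age as a term it differed by 2.46 and lost its call (adjusted p = 0.158). It was the only called gene of the list of lipoproteins and lipid secretion, in which 22 genes were measured. Their median was 0.08.

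Fgf21, a liver hormone that lowers sweet intake and rises with fructose and with amino acid stress, was near background on chow, at 2.65, 3.02 and 2.64. On HFD it was at 5.11, 4.68 and 6.28. The groups did not overlap, and the difference was 2.59 ± 0.45 (adjusted p = 0.0402), a size that depends on the background level reached on chow. The call was lost when any 1 of the 6 HET arrays was left out (adjusted p = 0.0524 to 0.152). Without chow replicates 1 and 2 Fgf21 differed by 2.72. It was the only call in the list of endoplasmic reticulum and ATF4 stress (26 measured genes, median 0.03), where the stress factor gene Ddit3 differed by -0.32 ± 0.17 (adjusted p = 0.553), and in the list of secreted hormones. Its receptor partner Klb was at 8.62, 8.54 and 8.79 against 9.10, 9.26 and 9.08, a difference of 0.50 ± 0.15 (adjusted p = 0.258). The Fgf21 promoter is shown with that of Khk below because each held 1 E-box, searched as CACGTG, which reads the same on both strands and is bound by clock factors and, as part of longer elements, by ChREBP.

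Among genes of fructose and glucose use Khk was the only call. Khk, ketohexokinase, was at 9.65, 9.89 and 10.18 on chow and at 10.92, 10.79 and 10.55 on HFD. It rose by 0.85 ± 0.14 (1.80-fold, adjusted p = 0.0326). Tkfc, the triokinase of the next step of fructose breakdown, was at 8.69, 8.78 and 9.30 against 9.97, 9.87 and 9.73, a difference of 0.93 ± 0.20 (adjusted p = 0.0984). Pklr, liver pyruvate kinase and a standard ChREBP target, was at 9.04, 9.19 and 10.08 against 11.44, 11.18 and 10.83, a difference of 1.71 ± 0.32 that narrowly missed the threshold (adjusted p = 0.0556). The sugar transporter genes Slc2a2 (0.93 ± 0.23) and Slc2a5 (0.94 ± 0.28) also lay higher in every HFD liver, with adjusted p = 0.163 and 0.233. Of 12 measured genes of the list, 1 was called, 5 were higher and 0 lower at an unadjusted p under 0.05 (4.78% and 5.46% of all genes), and the median was 0.30. In all 5 genes the lowest chow values were those of replicates 1 and 2. Without these 2 arrays the differences were 0.58 for Khk, 0.56 for Tkfc, 1.07 for Pklr, 0.32 for Slc2a2 and 0.53 for Slc2a5. Without chow replicate 3, 4 of the 12 were called higher.

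The 250 bases before the RefSeq start sites of Khk (GRCm38.p6, chr5:30921309-30921558, plus strand) and Fgf21 (chr7:45615491-45615740, minus strand) are given 5′ to 3′ on the gene's strand with the E-box in capitals, at positions -71 and -50 from the start.
Khk: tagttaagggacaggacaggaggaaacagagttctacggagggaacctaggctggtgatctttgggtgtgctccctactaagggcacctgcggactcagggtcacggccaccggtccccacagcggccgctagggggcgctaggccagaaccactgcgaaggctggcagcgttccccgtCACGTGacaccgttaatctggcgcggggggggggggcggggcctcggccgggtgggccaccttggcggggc
Fgf21: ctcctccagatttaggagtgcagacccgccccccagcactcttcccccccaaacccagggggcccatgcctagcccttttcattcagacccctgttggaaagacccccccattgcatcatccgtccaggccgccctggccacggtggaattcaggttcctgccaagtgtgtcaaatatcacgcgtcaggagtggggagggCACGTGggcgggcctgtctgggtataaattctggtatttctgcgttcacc
Over the longer windows, E-boxes were found in 2 of 12 promoters of the called rises (16.7%) and 1 of 30 of the called falls (3.33%), against 7.15% of all promoters and 6 of 26 (23.1%) in the list of clock genes. The fructose and glucose list had a match in 1 of 22 promoters (4.55%), that of Khk itself. No promoter of a called gene held the D-box TTATGTAA.

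Genes of fatty acid synthesis did not pass the test, and most of their differences were positive. Of 23 measured genes 0 were called, against 0.198% of all genes. At an unadjusted p under 0.05, 10 were higher and 0 lower (4.78% and 5.46% of all genes, 5.57% and 8.98% of those with a mean of at least 4). Of the 23 differences 21 were positive, and the median was 0.40, or 0.46 without chow replicates 1 and 2. The mean level of the list was 9.40 to 9.44 in the chow livers and 9.67 to 10.07 in the HFD livers. Acacb, the acetyl-CoA carboxylase at mitochondria, was at 6.33, 6.16 and 6.59 against 7.73, 7.79 and 6.98, a difference of 1.13 ± 0.22 (adjusted p = 0.0643). Fasn, fatty acid synthase, was at 10.18, 10.11 and 10.13 against 10.57, 11.34 and 10.83, a difference of 0.77 ± 0.25 (adjusted p = 0.288). Mlxipl, which encodes ChREBP, differed by 0.40 ± 0.12 (adjusted p = 0.254) with no overlap. Srebf1, which encodes SREBP-1c, overlapped (8.69, 8.81 and 8.96 against 8.50, 9.07 and 8.99), as did Scd1, the stearoyl-CoA desaturase (0.20 ± 0.17), Acly (0.27 ± 0.23), Me1 (0.46 ± 0.28) and Elovl6 (0.11 ± 0.18). Cholesterol synthesis genes had 0 calls of 19 and a median of 0.33, but their mean level in HFD replicate 3 (8.73) lay below the chow livers (8.92 to 9.06). For Sqle, squalene epoxidase, HFD replicates 1 and 2 (9.46 and 9.57) lay above the chow livers (8.59, 8.49 and 8.32) and HFD replicate 3 below them.

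**Figure D3:**
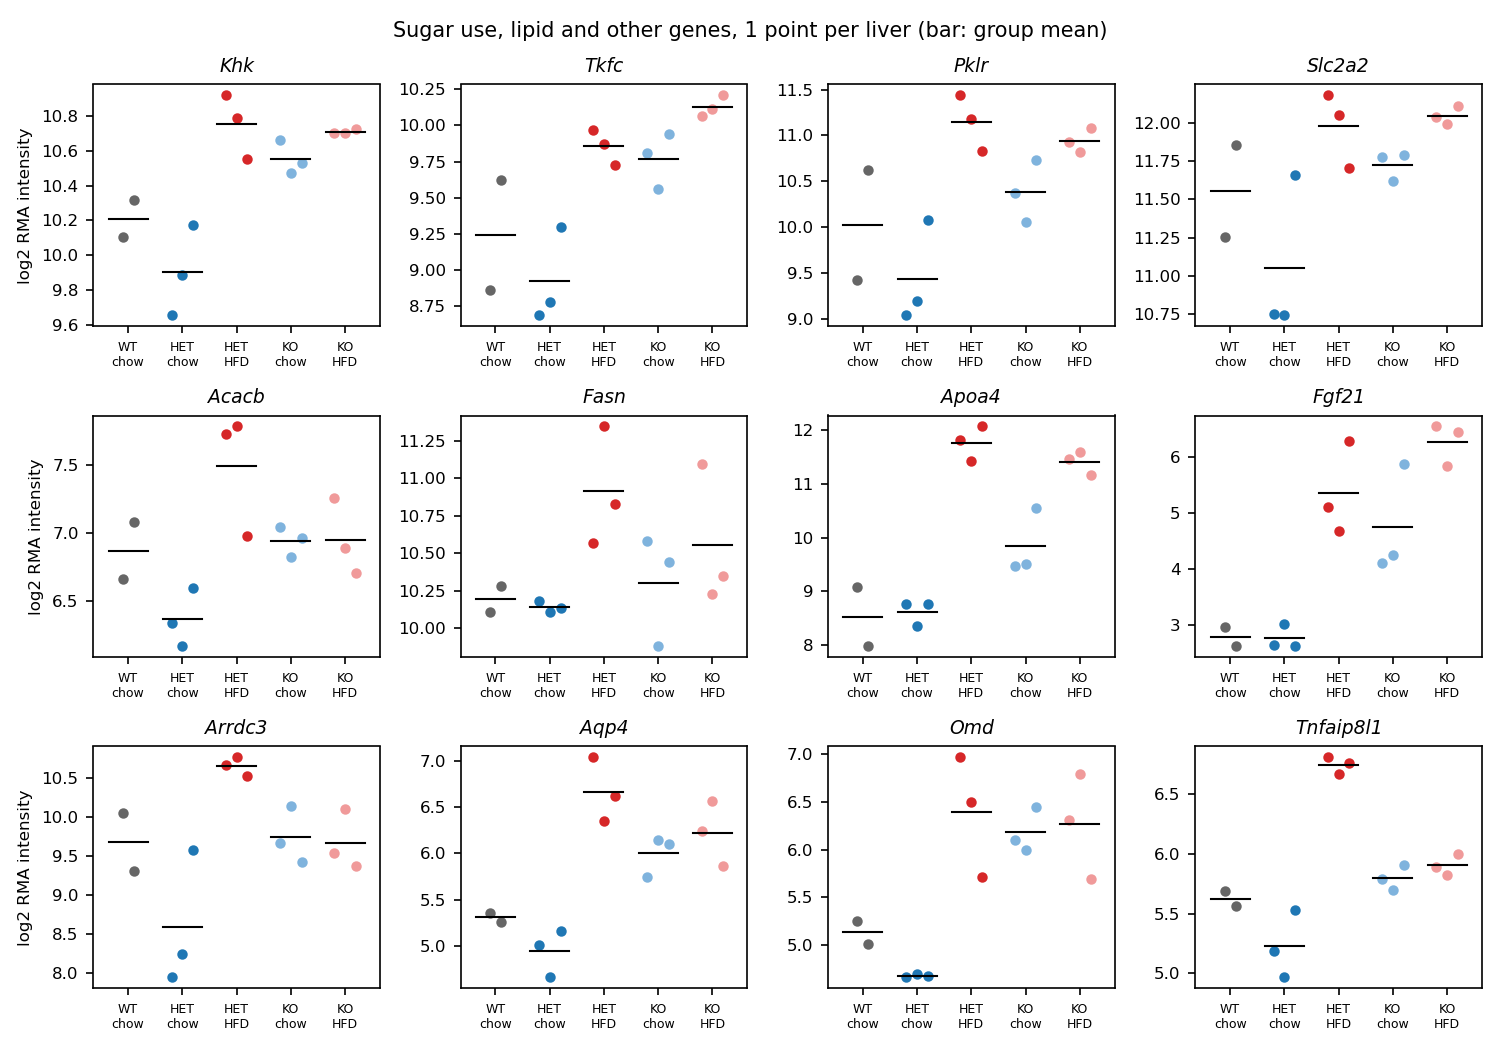
Log2 RMA intensity (vertical axes, scaled per panel and not starting at 0) of 12 genes of sugar use, lipid metabolism and other rises in the 5 groups (horizontal axes), with 1 point per liver and a bar at the group mean. HET HFD livers lie above HET chow livers in all 12 panels, and for Khk, Tkfc, Pklr and Slc2a2 the lowest HET chow points are replicates 1 and 2.

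The other rises were those of Arrdc3, an arrestin-like adaptor of adrenergic receptors (7.94, 8.24 and 9.57 against 10.67, 10.77 and 10.53, 2.07 ± 0.36, adjusted p = 0.0402), and of Aqp4, a water channel. Aqp4 lay between 4.66 and 5.16 on chow, was at 7.04, 6.35 and 6.62 on HFD, and rose by 1.73 ± 0.21 (adjusted p = 0.00433). Omd, a small leucine-rich matrix proteoglycan, was at 4.67, 4.70 and 4.68 on chow and at 6.96, 6.50 and 5.71 on HFD, a rise of 1.71 ± 0.30 (adjusted p = 0.0402). Tnfaip8l1 was at 5.19, 4.97 and 5.53 against 6.80, 6.67 and 6.76 and rose by 1.51 ± 0.13, the second smallest adjusted p of all genes (4.92e-04). Its HFD values were nearly equal and above those of every other group. Tmie, Fam13a, Hykk and the dim gene Gm16845 rose by 1.14, 0.98, 0.83 and 0.83. Aqp4, Tnfaip8l1 and Gm16845 kept their calls without any single HET array. With the 6 HET arrays alone all 3 lost their calls (adjusted p = 0.0748, 0.0581 and 0.128). Arrdc3 lost its call without any 1 HET array other than chow replicate 3 (adjusted p up to 0.191), Omd and Hykk without chow replicate 1 or 2 or HFD replicate 1 or 2 (up to 0.151 and 0.145), Fam13a without chow replicate 1 or 2 (up to 0.0611) and Tmie without chow replicate 1 or any HFD array (up to 0.152). In the fit without chow replicates 1 and 2 Arrdc3 differed by 1.09, Tnfaip8l1 by 1.21, Aqp4 by 1.51 and Gm16845 by 0.74. The gene with the largest difference of all, Rgs16, named after its values were seen, was not called. It was at 3.72, 3.71 and 7.63 on chow and at 10.71, 10.36 and 9.41 on HFD, a difference of 5.14 ± 1.14 (adjusted p = 0.113), with chow replicates 1 and 2 again the low ones.

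Apart from Apoa4, the genes named here that are known to mark steatosis were not called. In the list of lipid droplet genes, 0 of 20 measured were called, against 0.198% of all genes, and the median was 0.03. At that share 0 calls is the usual count for this list and for that of PPAR alpha targets below. Plin2, the coat protein of liver droplets, was at 9.57, 9.65 and 9.52 on chow and at 9.91, 10.12 and 9.79 on HFD, a difference of 0.36 ± 0.13 (adjusted p = 0.369) although no values overlapped. Cidea (dim), Cidec and Mogat1 (dim), which often rise strongly with diet-induced fat in the liver, differed by 0.04 ± 0.40, 0.11 ± 0.57 and 0.07 ± 0.33. Plin4 was at 4.57, 4.53 and 5.10 against 4.55, 3.65 and 3.06. The fatty acid carrier Cd36 was at 9.28, 9.03 and 9.05 on chow and at 8.47, 8.56 and 8.70 on HFD, lower in each HFD liver by -0.54 ± 0.15 on average (adjusted p = 0.192). In the list of fatty acid uptake, 1 of 17 was called (Acsl4, lower), against 0.149% of all genes called lower. At an unadjusted p under 0.05, 4 were higher and 4 lower, against 4.78% and 5.46% of all genes. Fabp2, a fatty acid binding protein, was at 8.08, 8.75 and 9.60 against 10.09, 10.40 and 10.30, a difference of 1.45 ± 0.30 (adjusted p = 0.0940). PPAR alpha targets had 0 calls of 27 and a median of 0.07, and Cyp4a14, its most responsive cytochrome target, was at 10.30, 11.03 and 10.86 against 10.26, 10.49 and 8.97. The gluconeogenic genes Pck1 (-0.18 ± 0.15) and G6pc (-0.12 ± 0.26) and the insulin signalling gene Irs2 (0.27 ± 0.30) overlapped between the diets.

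Chemokine, matrix and interferon-stimulated genes were not called either. There were 0 calls among 24 chemokine and NF-kB genes (median -0.01), 34 matrix genes (median -0.03) and the 23 measured interferon-stimulated genes. With 0.198% of all genes called, 0 is the usual count for lists of these sizes. Ccl2 was dim (3.38, 3.06 and 3.13 against 3.08, 3.03 and 2.94), as was Timp1. Col1a1, type I collagen, was at 6.09, 5.24 and 4.64 against 4.02, 4.58 and 5.01. The acute phase gene Lcn2 was at 5.89, 5.99 and 4.64 against 5.80, 5.67 and 5.96. The interferon-stimulated list had a median of 0.40 (0.46 without chow replicates 1 and 2), with 20 of 23 differences positive and 9 higher and 0 lower at an unadjusted p under 0.05 (4.78% and 5.46% of all genes). Its mean level was 5.54 to 5.75 in the chow livers and 5.82 to 6.26 in the HFD livers. Irf9, the DNA-binding part of the interferon-activated complex ISGF3, was at 7.31, 7.26 and 7.41 on chow and at 7.85, 7.91 and 7.72 on HFD, a difference of 0.49 ± 0.13 (adjusted p = 0.191).

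**Figure D4:**
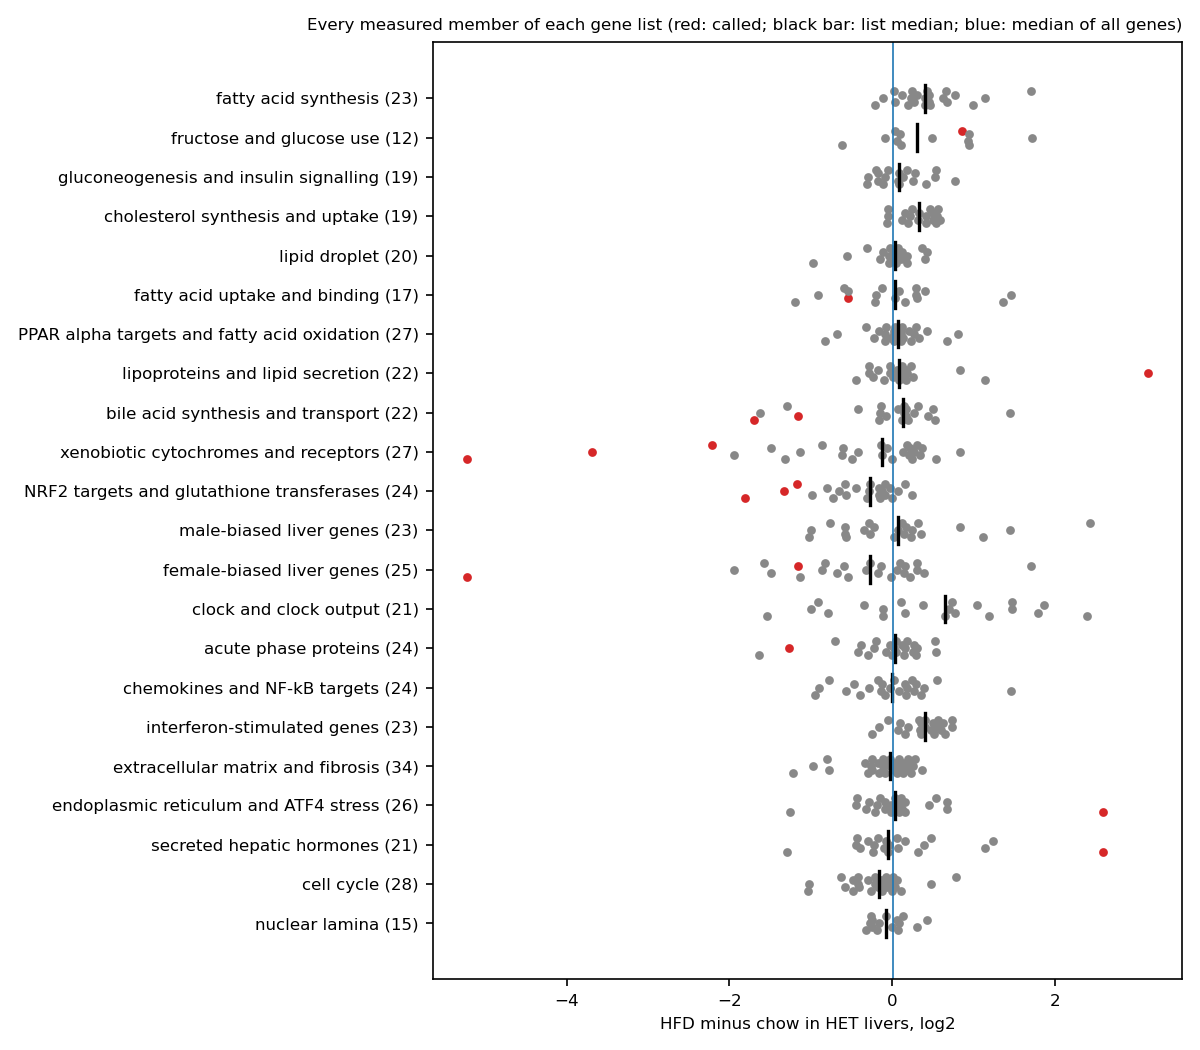
HFD minus chow in HET livers on the log2 scale (horizontal axis) for each measured member of 22 gene lists (vertical axis, number measured in brackets), with called genes in red, a black bar at the list median and a blue line at the median of all genes. Fatty acid synthesis and interferon-stimulated genes have medians of 0.40, NRF2 targets one of -0.28, and the largest called falls lie in the list of xenobiotic cytochromes.

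Markers of the cell types that a liver piece can hold had 0 calls in each of 11 lists. With 0.198% of all genes called, 0 is the usual count for such short lists, so these counts do not show an unchanged composition. The tissue was liver throughout: Alb, named after its values were seen, was at 13.38 to 13.47 in the 6 HET livers. The 18 measured hepatocyte markers had a median difference of -0.01 and mean levels of 10.15 to 10.33 on chow and 10.04 to 10.25 on HFD. In Kupffer cell markers 3 of 17 were higher at an unadjusted p under 0.05, against 4.78% of all genes, and the median was 0.27. Their mean levels of 6.84 to 7.40 on chow and 7.16 to 7.56 on HFD overlap. Only the endothelium list had mean levels that did not overlap, with 7.30 to 7.40 on chow and 7.50 to 7.54 on HFD. Of its 19 measured markers 16 were positive, 2 were higher at an unadjusted p under 0.05, and the median was 0.14. Of the macrophage and monocyte markers 13 of 17 were dim, of lymphocyte markers 14 of 19, of neutrophil markers 14 of 14, of pancreas markers 9 of 10 and of red cell markers 2 of 2. The fat tissue markers Adipoq and Lep were at or below 1.86 in each of the 6 livers. In whole liver RNA fewer cells of a type and less RNA per cell cannot be told apart, and the part of cell composition in the differences above was not tested.

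The same diet in KO livers called 70 genes (0.316%), 46 of them higher and 24 lower, and no array is shared with the HET comparison. The genotypes had 6 calls in the same direction in common, which is 13.6% of the HET calls and 8.57% of the KO calls, and 2 in opposite directions. The 6 were all falls of drug metabolism and uptake: Cyp2b10 (-3.51 ± 0.37 in KO), Cyp2c55 (-2.44 ± 0.36), Cyp3a59 (-2.41 ± 0.38), Slco1a4 (-2.30 ± 0.28), Ces2a (-2.09 ± 0.12) and Cyp3a11 (-1.47 ± 0.23). Of the 11 genes called higher in HET livers, 7 were also positive in KO livers and 0 were called. Of the 33 called lower, 20 were negative (60.6%, against 51.5% of all genes with equal signs). Apoa4 was at 9.47, 9.52 and 10.55 in KO chow livers and at 11.45, 11.58 and 11.16 in KO HFD livers, a difference of 1.55 ± 0.31 (adjusted p = 0.0637).

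The diet effect differed between the genotypes, by the interaction of diet and genotype, for 8 genes (0.0361%), 6 of them called in HET livers. Slc16a5 fell in HET livers and rose in KO livers, from 7.58, 7.49 and 7.44 to 8.44, 8.73 and 8.95, an interaction of 2.61 ± 0.28 (adjusted p = 0.00908). Nqo1 was at 7.47, 7.86 and 8.26 in KO chow livers and at 8.54, 8.27 and 8.94 in KO HFD livers (interaction 2.05 ± 0.31, adjusted p = 0.0450). Gstm3 was at 10.73, 10.99 and 11.12 against 10.93, 10.84 and 11.10 in KO livers (1.82 ± 0.27, adjusted p = 0.0450), where the diets overlapped. Tnfaip8l1 was at 5.79, 5.70 and 5.90 against 5.89, 5.82 and 6.00 in KO livers (-1.41 ± 0.19, adjusted p = 0.0275). Kmt5a, a histone methyltransferase, fell by 0.63 in HET livers and rose by 0.62 in KO livers (1.25 ± 0.15, adjusted p = 0.0171). For Cyp2b10 the interaction did not pass (1.70, adjusted p = 0.323), nor for Abcc4 (1.85, adjusted p = 0.0544). KO livers were 38.9 weeks old on chow and 35.3 weeks on HFD, so age moved down with HFD there and up with HFD in HET livers, and age and genotype cannot be told apart in these differences.

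**Figure D5:**
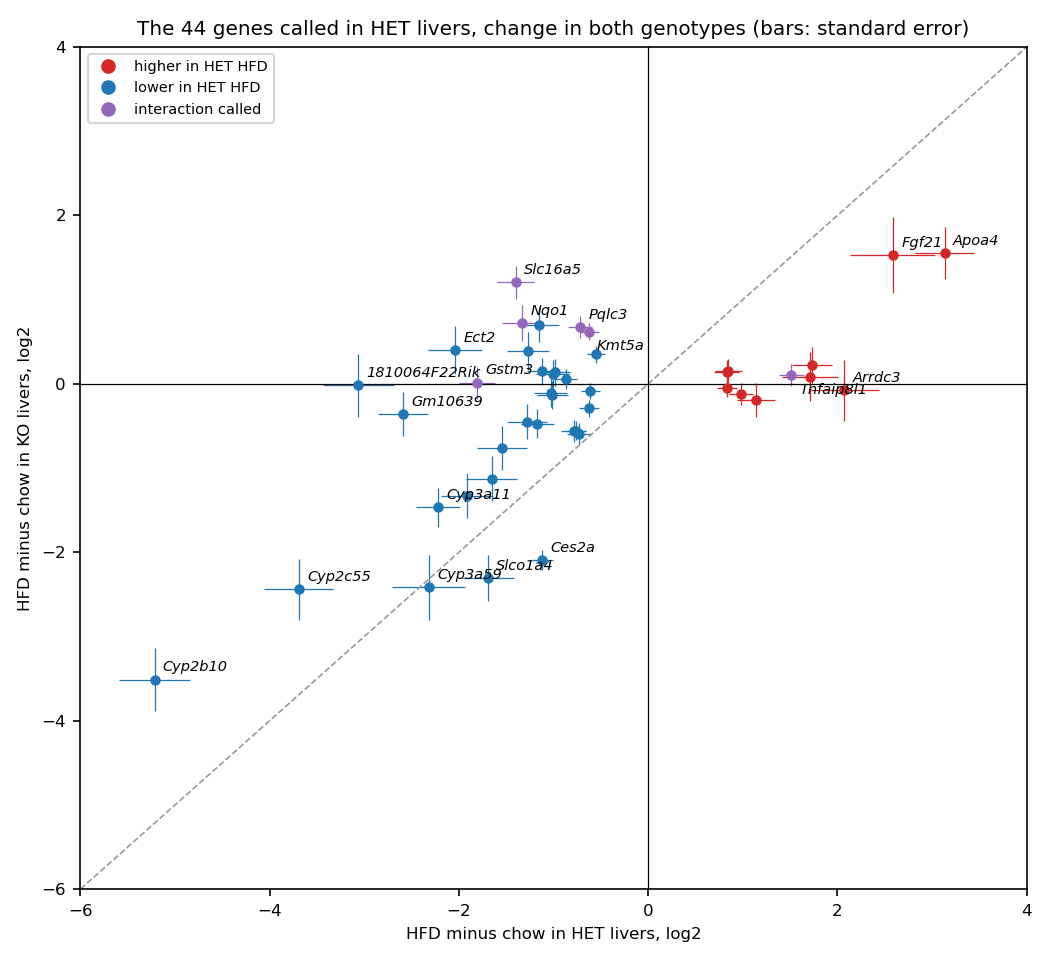
HFD minus chow on the log2 scale for the 44 genes called in HET livers, in HET livers (horizontal axis) and KO livers (vertical axis), with standard errors as bars, the line of equal change dashed and interaction calls in purple. Cyp2b10, Cyp2c55, Cyp3a11, Cyp3a59, Slco1a4 and Ces2a are lower in both genotypes, while Slc16a5 lies at -1.40 in HET and 1.21 in KO livers.

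Clock genes themselves had 0 calls of 21 measured (0.198% of all genes). Their median was 0.64, the largest of all lists, but it was -0.05 without chow replicates 1 and 2 and 0.83 without chow replicate 3, where 7 were called higher and 1 lower. Dbp differed by 2.39 ± 0.68 (adjusted p = 0.219), and by 0.14 without chow replicates 1 and 2. Bhlhe41, a clock repressor, was at 3.71, 3.05 and 4.55 on chow and at 6.57, 5.12 and 5.21 on HFD, a difference of 1.86 ± 0.38 (adjusted p = 0.0901). Nr1d1, the repressor REV-ERB alpha, was at 8.94, 8.84 and 8.30 against 9.76, 9.84 and 9.58 (1.04 ± 0.23, adjusted p = 0.119), and here chow replicate 3 was the lowest. Lepr, the leptin receptor, was at 7.06, 7.14 and 4.34 on chow and at 4.95, 5.01 and 4.69 on HFD, and Hsd3b5, a male-biased steroid enzyme, at 6.20, 5.44 and 8.25 against 9.29, 9.09 and 8.78, so that in both genes chow replicates 1 and 2 differed from chow replicate 3 by more than 2 on the log2 scale.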

How the data were processed

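Per the submitters' processing notes, RMA and limma were used, and the deposited unit is a log2 intensity for each probe set. Versions, batch adjustment and scanner output are not given in the sources used here. Of 41345 probe sets, 23521 carried 1 gene symbol in the platform annotation, 1814 had several and 16010 had none. Analysis was limited to the first kind, with the brightest over all 14 arrays for each of 1082 genes with more than 1. No filter on level was applied, and array medians were 2.21 to 2.30. All 14 arrays entered a linear model of 5 group means in limma 3.58.1 in R 4.3.3 (9 residual and 3.83 prior degrees of freedom), and p-values were adjusted over 22180 genes by Benjamini-Hochberg. The labels give 1 liver per array. On simulated data, calls were made for 74% of 50 genes with a simulated log2 change of 1 and for 100% at 2, 3 or 4, with 11 false calls among 22180 genes. These rates belong to the simulated data. They give no error rate for the genes called in HET livers, where the chow group was not uniform. The number of arrays limits the precision.

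Of 727 entries in 33 gene lists 650 were measured under 1 symbol. The other entries were not analysed here. Named genes were Lmna, up to 15 largest rises and 15 largest falls among called genes (predicted genes and small RNAs left out), up to 5 members of each list with the smallest p, and a core set, and each called gene is also named. Other genes named outside this rule are said to be. The members, lists and rules were chosen with earlier results of these data known. Promoters are RefSeq's. Alternatives changed the arrays, weights, prior, filter, probe sets, scaling, block, age and threshold.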

Additional observations from a re-analysis of the deposited data

Results flagged for a closer look

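For 8 genes the diet effect differed between HET and KO livers by the interaction term of the limma fit over all 14 arrays (KO change minus HET change, Benjamini-Hochberg adjusted p under 0.05). Of those called in HET livers, the interaction was 2.61 for Slc16a5, 2.05 for Nqo1, 1.82 for Gstm3, 1.39 for the dim gene Pqlc3, 1.25 for Kmt5a and -1.41 for Tnfaip8l1. The other 2 were not called in HET livers and were named after their values were seen. Tmem79 had an interaction of 1.18, with differences of -0.64 in HET and 0.54 in KO livers, and was dim in HET livers. Guca2b, a gut peptide of the guanylin family, had an interaction of 2.45. It was dim in the HET livers (2.14, 2.25 and 2.20 on chow, 1.96, 2.25 and 2.00 on HFD) and differed by 2.32 in KO livers.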

How the results depend on the processing

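All 44 genes called in HET livers kept their direction under each alternative that tested them, which was 39 of 44 among genes with a mean of at least 4. Changes of HET arrays, weights, prior or threshold could not reverse it, because HFD and chow livers did not overlap in these genes. The number called (higher and lower) was 3 (1 and 2) with the 6 HET arrays alone, 67 (25 and 42) with array weights, 271 (128 and 143) with age as a linear term and 13 (5 and 8) at an adjusted p under 0.01. The number higher was 19 with a trended and robust prior, 18 among genes with a mean of at least 4, 7 with array-name letters as a random block and 19 with WT and HET chow livers as 1 group. The fit without chow replicates 1 and 2 and the clock term were choices made after seeing the data. Leaving out 1 HET array gave 13 to 164 called, 4 to 67 higher and 8 to 97 lower; each such fit assumes that the remaining pair varies like the other groups. The KO comparison called 45 genes with its own arrays alone and 132 with age, and the interaction 26 among genes with a mean of at least 4 and 206 with age. Of the 44 genes 13 were also called with age as a term. Under it 4 genes that were not called were called with the opposite sign, Ppp1r3c (-1.88), Ces1d (1.86), Syne1 (-1.76) and Cyp17a1 (-5.50). The slope of the age term came mostly from HET chow and WT livers, so its counts and signs are not corrected for age. The cause of these changes was not tested, except that a stricter threshold calls fewer genes by construction. No paired analysis was possible because the labels give no replicate number that HET chow and HFD mice share. Dim probe sets limit how large a measured fall can be.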
